A study of Mus musculus with 27 samples.

Results

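Gene deserts are the long stretches of a genome that lie between annotated genes. Here a gene desert was an autosomal gap of at least 500 kb between the merged gene intervals of the study's expression table, and its members were the 10-kb bins of that gap that lay at least 50 kb from a gene and held H3 reads in all 6 H3 libraries. There were 659 such gaps, and 69292 bins met the rule, or 29.3% of the 236487 autosomal bins with H3 reads in all 6 H3 libraries. The other 167195 autosomal bins, which hold the genes, their surroundings and the shorter gaps, served as the comparison. The rule reached 71946 bins, and 2654 of them were dropped because at least 1 H3 library had no read there; 2016 of the dropped bins had no H3 read in any library and 1548 were mostly unknown bases in the assembly.

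Nucleosomes wrap the DNA of deserts as they wrap that of genes, and histone H3 is one of their core proteins. Trimethylation of H3 at lysine 4 (H3K4me3) is known as a mark of active promoters, that at lysine 27 (H3K27me3) is laid down by Polycomb repressive complex 2 and covers silent developmental genes, and that at lysine 9 (H3K9me3) marks constitutive heterochromatin and satellite repeats. Deserts are typically rich in A and T, poor in CpG, and many of those next to developmental regulators hold distant enhancers.

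The study followed mouse embryonic fibroblasts (MEFs) to partially reprogrammed pre-iPSCs and to induced pluripotent stem cells (iPSCs). The MEFs came from E13.5 embryos that were hemizygous for an Oct4-GFP transgene and a Rosa26 allele, from CBA/CaJ and C57BL/6J stock crossed to 129Sv/Jae females. The pre-iPSCs and iPSCs were made by retroviral delivery of 4 factors, c-Myc, Klf4, Sox2 and Oct4, and were grown with LIF on mitomycin C-inactivated MEF feeders, so that their libraries can hold feeder chromatin and RNA. The reprogrammed cells were 2 stable pre-iPSC clones and the iPSCs from them, and the labels do not say which clone a library came from. Mononucleosomes were cut out with micrococcal nuclease (MNase), which was used at a lower amount and for longer in pre-iPSCs and iPSCs than in MEFs, so that cell type and digestion cannot be told apart. Of the 27 libraries, 21 were ChIP-seq of mononucleosomes with 2 per cell type for H3, H3K4me3 and H3K27me3 and 1 per cell type for H3K9me3, and 6 were RNA-seq with 2 per cell type. The study's methods call the replicates biological, the labels name no separate culture or embryo for each, and the p-values measure the spread between these libraries.

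Stretches of 3 deserts show the sequence under bins of high level and in the longest gap. All coordinates are of the mm9 (NCBIM37) assembly, the letters are the plus strand, and CG dinucleotides are in capitals. Each run of 150 bases was centred on the deepest called nucleosome of its bin, except the last, which is the middle of the bin of median GC content among the 21 member bins of the longest gap. A member bin in the desert between Lrrc4c and B230118H07Rik had the highest mean H3K9me3, H3K4me3 and H3K27me3 of all desert bins. A bin between Esp23 and Pgk2 was chosen for its high H3. Its H3 exceeded that of the Lrrc4c bin in replicate 1 of pre-iPSCs (10.0 against 3.47 RPKM) and of iPSCs (4.68 against 4.03). It was lower in both MEF libraries (2.66 against 5.72 and 3.41 against 4.29). It was also lower in replicate 2 of pre-iPSCs (2.59 against 3.98) and of iPSCs (2.56 against 3.81).
Lrrc4c/B230118H07Rik, chr2:98507289-98507438: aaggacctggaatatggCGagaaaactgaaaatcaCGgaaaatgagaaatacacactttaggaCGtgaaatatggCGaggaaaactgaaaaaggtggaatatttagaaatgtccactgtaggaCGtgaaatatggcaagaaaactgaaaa
Esp23/Pgk2, chr17:39980204-39980353: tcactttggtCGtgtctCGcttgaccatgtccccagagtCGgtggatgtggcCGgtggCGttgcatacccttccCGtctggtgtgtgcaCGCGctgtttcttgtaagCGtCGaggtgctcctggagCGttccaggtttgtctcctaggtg
Gm5591/Gm5114, chr7:46444926-46445075: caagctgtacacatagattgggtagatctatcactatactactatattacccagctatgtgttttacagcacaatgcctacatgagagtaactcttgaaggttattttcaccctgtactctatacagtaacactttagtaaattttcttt

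The first run, with 5 CG dinucleotides and 37.3% GC, lies inside Gm10800 of the GENCODE annotation and is a stretch of the mouse major (gamma) satellite, the repeat that fills the heterochromatin beside mouse centromeres. It held a single called nucleosome of 1367 reads in the MEF H3K9me3 library. The second run lies in a bin that holds the annotated pseudogene AY036118, and it had 11 CG dinucleotides and 58.7% GC and a called nucleosome of 756 reads in H3 of pre-iPSC replicate 1. The third run had no CG dinucleotide and 34.7% GC. The longest stretch that recurs within the first run, TAGGACGTGAAATATGGC, searched on both strands, occurred 5 times in the first bin. It was present in 1 of the 69292 desert bins (0.00144%), this one, and in 6 of the other bins (0.00359%). The assembly holds few copies of a repeat of which a cell has many, so reads of this repeat can be shared between copies and its level in a single bin is uncertain.

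The gaps had a median length of 883.803 kb, with quartiles of 660.007 and 1400.84 kb. The shortest, 500.189 kb between Myh15 and Ift57, 500.894 kb between Man2a1 and Tmem232 and 502.172 kb between Prok2 and Rybp, sat just inside the rule. The gaps between Srrm4 and Suds3 (499.862 kb), Luzp2 and Siglech (499.289 kb) and Adcy2 and Papd7 (498.417 kb) sat just outside. The longest was 7349.451 kb between Gm5591 and Gm5114 on chromosome 7, of which 21 bins were members. In all, 283 gaps reached 1 Mb and 88 reached 2 Mb. The share of a chromosome's bins that were desert ran from 17.1% on chromosome 19 to 40.8% on chromosome 12.

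Desert bins had a median GC content of 38.72% against 42.75% in the other bins, and a median of 5.2 against 8.7 CpG per kb. GC content was over 40% in 33.7% of desert bins and in 74.3% of the others. The mean GC content of a desert ran from 35.8% to 49.8%. The gaps were empty of genes in the expression table only: GENCODE placed 3309 genes wholly inside them, of which 493 were protein coding (in 235 gaps), 761 pseudogenes, 290 miRNAs and 87 lincRNAs, and 60 gaps held none. Irx3, a homeobox gene of limb and heart patterning, lies in the gap between Fto and Irx5, Miat, a long noncoding RNA, in that between Mn1 and Cryba4, and Rims2, a protein of the synaptic active zone, in that between Dcaf13 and Tm7sf4. The gap between Adam6a and Zfp386 is the immunoglobulin heavy chain locus with 112 annotated variable genes.

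The labels of the cell types were checked in the expression tables. The summed level of 9 fibroblast markers was 4895 and 11029 FPKM in the MEF libraries, 432 and 526 in the pre-iPSC libraries and 204 and 292 in the iPSC libraries, with none of the 9 at 0 in any library. The summed level of 9 pluripotency markers was 0.0233 and 0.404 FPKM in MEFs, where 8 and 7 of the 9 were listed at 0. It was 255 and 340 in pre-iPSCs, where 3 of 9 were listed at 0 in each library, and 1773 and 1839 in iPSCs, where none was. The part of feeder cells in the fibroblast markers of pre-iPSCs and iPSCs, and in the results below, was not tested.

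Chromosome 8 stood apart in iPSC replicate 1. When the reads of the 39 deserts of chromosome 8 were divided by those expected from their GC content and set against the median chromosome, iPSC replicate 1 gave 1.51 for H3, 1.48 for H3K4me3, 1.53 for H3K27me3 and 1.48 for H3K9me3. The other 17 libraries gave 1.02 to 1.10. The non-desert bins of chromosome 8 showed the same in that replicate, from 1.42 to 1.45, against 0.963 to 1.01 in the others. In RNA, the 389 genes of chromosome 8 at 5 FPKM or more were higher in iPSC replicate 1 than in replicate 2 by a median of 0.71 on the log2 scale, against 0.13 for 5919 genes of the other autosomes. All iPSC values of chromosome 8 deserts are therefore given per replicate, and the level ratios, the 1.5-fold shares and the uncorrected counts of called bins, deserts and flanking genes were repeated without chromosome 8. The chromosome 12 deserts were the lowest in every library, at 0.799 to 0.931.

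**Figure D1:**
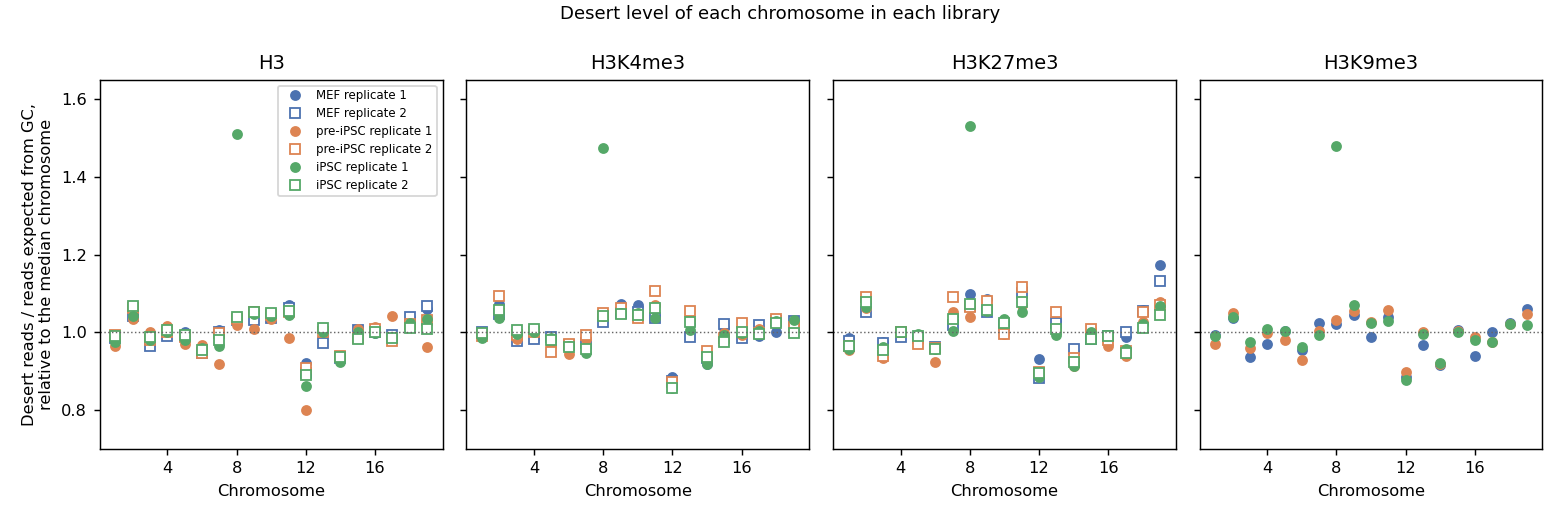
Desert reads of each autosome (x axis) divided by the reads expected from GC content and set to the median chromosome (y axis, ratio), 1 panel per antibody, with filled circles for replicate 1 and open squares for replicate 2. Chromosome 8 of iPSC replicate 1 lies at 1.48 to 1.53 in all 4 panels, and chromosome 12 is lowest in every library.

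Levels are given as RPKM, the reads of called nucleosomes per kb of bin and per 1000000 uniquely mapped reads of the library. Mean H3 in desert bins was 0.284 and 0.279 RPKM in the MEF replicates, 0.150 and 0.270 in the pre-iPSC replicates and 0.207 and 0.254 in the iPSC replicates. In the other bins it was 0.318 and 0.314, 0.430 and 0.321, and 0.355 and 0.330. Deserts were thus below the rest in each library, slightly in both MEF libraries and most in pre-iPSC replicate 1, where the other bins were also the highest of all. The ratio of desert to other bins was 0.893, 0.887, 0.348, 0.841, 0.583 and 0.768 in the same order, with a geometric mean of 0.686 (SD of the log2 ratio 0.53, n = 6 libraries, 2-sided exact sign-flip test p = 0.031, the smallest that 6 libraries allow). Without pre-iPSC replicate 1 the mean ratio was 0.785, and without chromosome 8 it was 0.684.

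The marks were lower in deserts too. Mean H3K4me3 in desert bins was 0.254 and 0.272 RPKM for MEFs, 0.236 and 0.236 for pre-iPSCs and 0.235 and 0.226 for iPSCs, against 0.352 to 0.380 in the other bins. The ratio was 0.694, 0.772, 0.634, 0.631, 0.627 and 0.595, and it was below that of H3 in all but the replicate 1 libraries of pre-iPSCs and iPSCs (mean 0.656, SD of the log2 ratio 0.14, n = 6, exact sign-flip p = 0.031). Mean H3K27me3 was 0.307 and 0.277 RPKM for MEFs, 0.256 and 0.264 for pre-iPSCs and 0.265 and 0.275 for iPSCs. Its ratios of 0.900, 0.791, 0.706, 0.728, 0.737 and 0.771 were nearer to 1 than those of H3K4me3 (mean 0.770, SD 0.13, n = 6, exact sign-flip p = 0.031). Mean H3K9me3 was 0.309 RPKM for MEFs, 0.276 for pre-iPSCs and 0.284 for iPSCs, with ratios of 0.914, 0.775 and 0.805. With 3 libraries the exact test cannot go below 0.25, which it gave.

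Much of this difference went with base composition. With the other bins weighted to the GC content of the desert bins, in classes of 1 percentage point, the H3 ratio was 0.970 and 0.980 for MEFs, 0.809 and 0.937 for pre-iPSCs and 0.899 and 0.916 for iPSCs (mean 0.917, n = 6, exact sign-flip p = 0.031). The H3K4me3 ratio was 0.846 to 0.925 in the 6 libraries (mean 0.881, exact sign-flip p = 0.031). H3K4me3 and H3 therefore stayed below the rest at equal GC content in each of their libraries. The H3K27me3 ratio was 1.03 and 1.02 in MEFs and 0.953 to 0.981 in the other 4 libraries (mean 0.989, n = 6, exact sign-flip p = 0.469). The H3K9me3 ratio was 1.03, 0.940 and 1.00 in MEFs, pre-iPSCs and iPSCs. The H3K27me3 ratio of MEFs (1.03, SD 0.00877, n = 2) lay above that of pre-iPSCs (0.965, SD 0.0169, n = 2) and of iPSCs (0.976, SD 0.00779, n = 2) by more than these SDs. In GC classes under 42% both MEF libraries lay above every pre-iPSC and iPSC library, but at 42% to 45% they overlapped. In bins of 45% GC and over MEFs were at 1.02 and 0.970, pre-iPSCs at 1.04 and 1.11 and iPSCs at 0.990 and 1.04. An exact permutation test of 2 libraries against 2 cannot go below p = 0.33, whatever the difference.

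**Figure D2:**
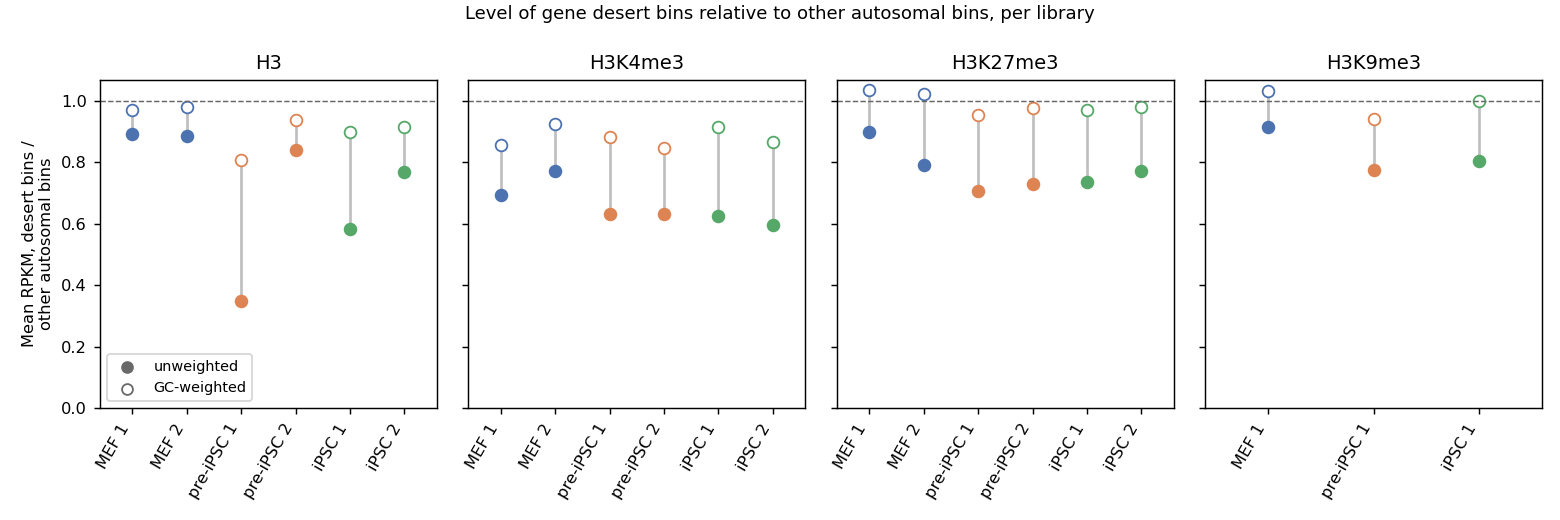
Ratio of mean RPKM in desert bins to that in the other autosomal bins (y axis) for each library and antibody, unweighted and with the other bins weighted to the GC content of deserts, 1 point per library. The unweighted points all lie below 1, from 0.348 for H3 of pre-iPSC replicate 1 to 0.914 for H3K9me3 of MEFs, and the weighted points of H3K27me3 and H3K9me3 lie on both sides of 1.

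The libraries differed in how steeply H3 followed GC content inside the deserts. In desert bins under 36% GC, mean H3 was 0.269 RPKM in both MEF replicates, 0.248 in pre-iPSC replicate 2 and 0.219 in iPSC replicate 2, but 0.0726 in pre-iPSC replicate 1 and 0.140 in iPSC replicate 1. In desert bins of 45% GC and over the order turned, with 0.344 and 0.355 in MEFs, 0.598 in pre-iPSC replicate 1 and 0.442 in iPSC replicate 1. Across desert bins, Spearman's rho of H3 with GC content was 0.296, 0.285, 0.565, 0.351, 0.540 and 0.417 in the 6 libraries. The MEF replicates thus lay close together on this slope, and in pre-iPSCs and in iPSCs replicate 1 was the steeper. Pearson's r of H3 across the 69292 desert bins was 0.932 between the MEF replicates, 0.878 between the iPSC replicates and 0.552 between the pre-iPSC replicates. Pre-iPSC replicate 2 was closer to iPSC replicate 2 (0.948) and MEF replicate 1 (0.935) than to its own replicate. These coefficients are descriptions over bins that share libraries.

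Called nucleosomes of at least 2 reads were sparser in deserts and, on average, less fuzzy. Calls below that were left out of both measures. Over the genome 6329106 of 8025059 H3 calls were kept in pre-iPSC replicate 1, and 9480702 of 9954374 in MEF replicate 1. Deserts held 3.60 and 3.77 H3 calls per kb for MEFs, 2.04 and 3.60 for pre-iPSCs and 3.27 and 3.50 for iPSCs, and the other bins 3.90, 4.02, 2.83, 3.92, 3.80 and 3.89. Fuzziness, the spread of tags around the nucleosome centre, averaged 31.4 and 32.3 bp in MEF deserts, 23.8 and 31.6 bp in pre-iPSCs and 30.9 and 31.3 bp in iPSCs. In the other bins it was 31.9, 32.7, 27.1, 32.3, 33.0 and 32.5 bp. Both measures were lower in deserts in 6 of 6 libraries (exact sign-flip p = 0.031 for each), and pre-iPSC replicate 1 was lowest in both. Desert bins also held fewer H3 reads in each library. Neither measure was matched for depth or GC content, so they cannot be told apart from these. Depth per bin was a median of 132 to 322 H3 reads, 32 to 43 of H3K4me3, 38 to 50 of H3K27me3 and 40 to 47 of H3K9me3, so single bins of the marks are much less precise than single bins of H3.

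Levels fell further with distance from a gene. Bins were classed by the distance of their centre, and those of the gaps within 50 kb of a gene, which are not members, were added as the nearest class. H3 of MEF replicate 1 was 0.305 RPKM in the 5856 bins under 50 kb, 0.294 at 200 to 400 kb and 0.252 in the 11705 bins beyond 800 kb. H3 of pre-iPSC replicate 1 was 0.233, 0.170 and 0.0865 RPKM in the same classes. In all 21 libraries the bins beyond 800 kb were lower than those under 50 kb, while mean GC content went from 40.9% to 37.2%. The decline was also there at equal GC content: the weighted ratio to the other bins went from 1.13 to 0.917 for H3K27me3 of MEF replicate 1, from 0.946 to 0.890 for H3K4me3 of MEF replicate 2 and from 1.05 to 0.975 for H3K9me3 of MEFs. It was lower beyond 800 kb than under 50 kb in each of the 21 libraries. For H3 in MEFs most of that drop came beyond 400 kb, with 1.00, 0.992, 0.956 and 0.897 in replicate 1 under 50 kb, at 200 to 400 kb, at 400 to 800 kb and beyond 800 kb.

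**Figure D3:**
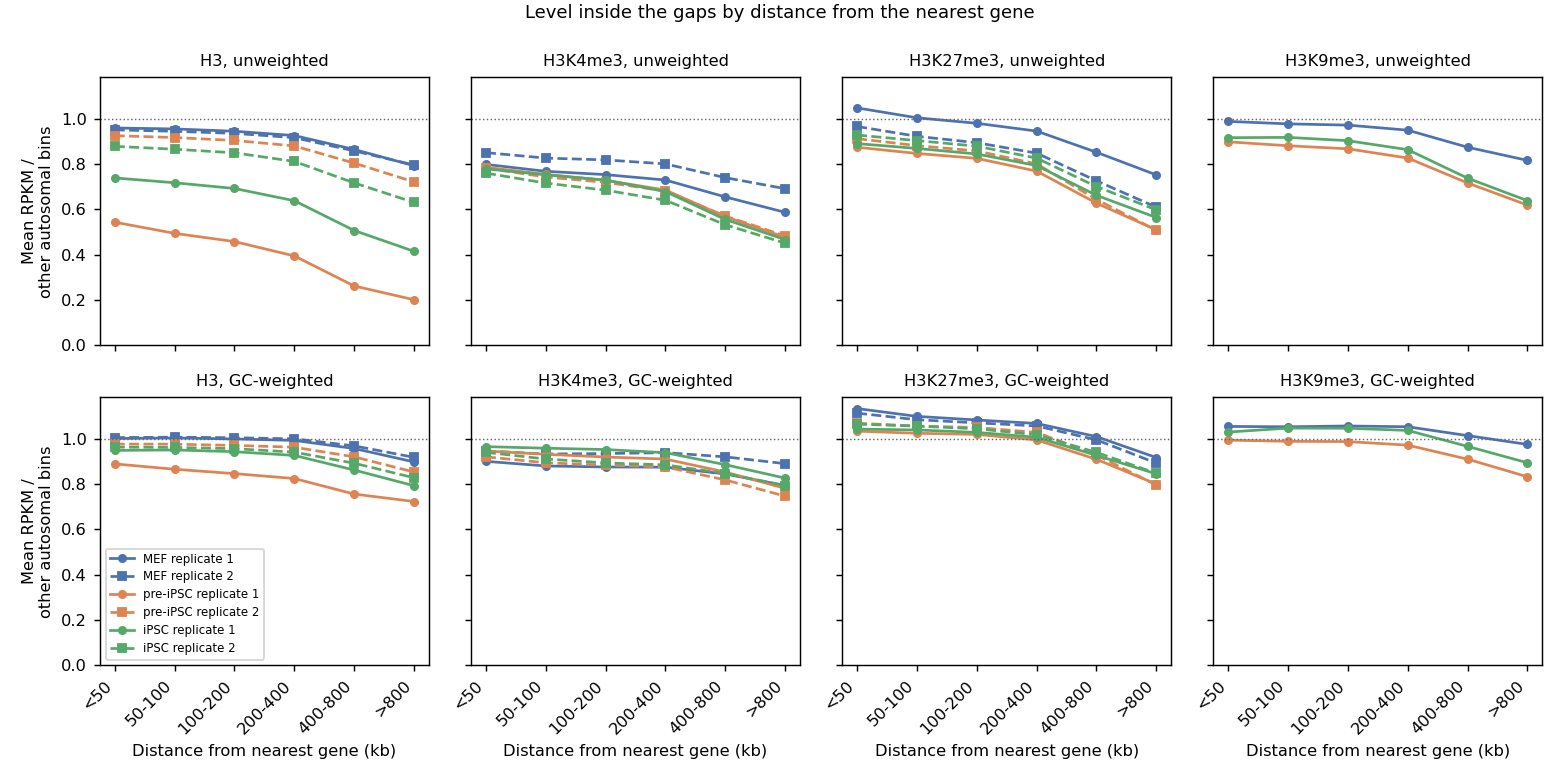
Mean RPKM relative to the other autosomal bins (y axis) by distance of the bin centre from the nearest gene (x axis, kb), unweighted above and GC-weighted below, 1 line per library. The lines fall to their lowest value beyond 800 kb in each panel, and H3 of pre-iPSC replicate 1 lies lowest of the H3 lines.

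Longer deserts were lower in the same way. In the 205 deserts of 500 to 700 kb H3 of MEF replicate 1 was 0.316 RPKM, in the 171 of 700 to 1000 kb it was 0.297, in the 195 of 1000 to 2000 kb it was 0.290, and in the 88 of at least 2000 kb it was 0.257. At equal GC content the first and last of these classes were at 1.03 and 0.908 of the other bins for H3 and at 1.15 and 0.930 for H3K27me3 in that replicate. In the shortest class the GC-weighted H3K27me3 ratio was above 1 in 6 of 6 libraries, from 1.08 to 1.15, and in the longest class below 1 in 6 of 6, from 0.821 to 0.930. H3K4me3 was below 1 in both classes in all 6 libraries.

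Single deserts spread widely around these means. Of the 659 deserts, 218 and 192 exceeded the mean H3 level of the other bins in the MEF libraries, 50 and 188 in the pre-iPSC libraries and 77 and 150 in the iPSC libraries. For H3K4me3 the count was 47 to 91 in the 6 libraries, for H3K27me3 151 to 251, and for H3K9me3 222, 163 and 181. The deserts above the mean had a median GC content of 41.8% to 45.7% and those below 38.3% to 39.1%. Their median length was 660 to 734 kb, against 915 to 1099 kb below it. Across the 659 deserts, the mean levels of the antibodies ranked almost alike, with Spearman's rho of H3 at 0.982 with H3K4me3, 0.986 with H3K27me3 and 0.980 with H3K9me3, and each ranked with GC content (0.783 for H3 and 0.799 for H3K4me3). These rankings share the mappable length, depth and base composition of a desert.

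In the Pcdh20/Pcdh9 desert (4542 kb, 442 bins, 36.2% GC), H3 was 0.228 and 0.217 RPKM for MEFs, 0.0788 and 0.214 for pre-iPSCs and 0.127 and 0.192 for iPSCs. The protocadherins beside it are cell adhesion proteins of neurons. Its H3K27me3 was 0.241 and 0.186, 0.159 and 0.156, and 0.174 and 0.192 RPKM, with the MEF libraries above or near the highest of the others. In the Odz3/Aga desert on chromosome 8 (4837 kb, 471 bins), H3 was 0.268 and 0.271, 0.0932 and 0.249, and 0.231 and 0.227 RPKM. There the H3K4me3 of iPSCs was 0.268 in replicate 1 and 0.188 in replicate 2, and the MEF values of 0.223 and 0.250 lay between them.

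The 21 member bins of the longest gap, Gm5591/Gm5114, had H3K27me3 of 0.0569 and 0.0439 RPKM for MEFs, 0.0917 and 0.0795 for pre-iPSCs and 0.114 and 0.111 for iPSCs. The groups did not overlap, and iPSCs were higher than MEFs by 1.17 on the log2 scale (edgeR quasi-likelihood fit, adjusted p = 0.0033), or by 1.20 with GC correction. Its H3 was 0.113 and 0.0689, 0.0765 and 0.102, and 0.0907 and 0.10001 RPKM, which overlapped between cell types. These values rest on few bins for the length of the gap.

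By the mean over the 6 libraries, the highest H3K4me3 and H3K27me3 of a whole desert was between Mn1, a transcriptional coregulator, and Cryba4, a lens crystallin (68 bins, 49.8% GC). Its H3K4me3 was 0.431 and 0.466 RPKM for MEFs, 0.626 and 0.596 for pre-iPSCs and 0.555 and 0.575 for iPSCs. Its H3K27me3 was 0.566 and 0.687, 0.738 and 0.760, and 0.629 and 0.672 RPKM. Both marks were above the mean of the other bins in every library, but it ranked first in 1 library per mark, pre-iPSC replicate 1 for H3K4me3 and pre-iPSC replicate 2 for H3K27me3. The next highest for H3K4me3 were Fto/Irx5, Gadd45g/Diras2, 1700018L24Rik/Sox1 and Rragc/Pou3f1, and for H3K27me3 Gm4791/Cadm1, 1700018L24Rik/Sox1, Prok2/Rybp and Rps24/Zmiz1. Fto/Irx5 and 1700018L24Rik/Sox1 lie on chromosome 8, and with iPSC replicate 1 left out they ranked 9 and 13 for H3K4me3, while 1700018L24Rik/Sox1 went from 3 to 5 for H3K27me3. Mn1/Cryba4 then remained first for H3K4me3 (mean 0.539 RPKM) and came just behind Gm4791/Cadm1 for H3K27me3 (0.6846 against 0.6853). Irx5, Sox1 and Pou3f1 encode developmental transcription factors, Cadm1 a cell adhesion molecule and Rybp a subunit of a Polycomb complex. These deserts had a GC content of 45.2% to 47.7% and were picked for their level.

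Few desert bins of 10 kb reached 1 RPKM. A bin over 1 RPKM of H3K4me3 in both libraries was found 8 times in MEF deserts (0.0115% of desert bins, against 0.699% of the other bins), 3 times in pre-iPSCs (0.200% of the other bins) and 5 times in iPSCs (0.219%). For H3K27me3 the counts were 2, 11 and 5, against 0.0885%, 0.0789% and 0.0407% of the other bins, and the 11 bins lay in 4 deserts. The satellite bin of the Lrrc4c desert (chr2:98500001-98510000, 1033 kb from the nearest gene) had H3K9me3 of 51.7 RPKM for MEFs, 10.3 for pre-iPSCs and 11.8 for iPSCs. Its H3K4me3 was 22.4 and 22.1, 8.81 and 10.6, and 10.5 and 11.4 RPKM, and its H3 5.72 and 4.29, 3.47 and 3.98, and 4.03 and 3.81. All 4 antibodies were highest in MEFs or, for H3K27me3 (7.78 and 7.35, 7.02 and 6.46, 8.75 and 8.13), in iPSCs, and H3K9me3 differed most. The bin alone held 0.241% of the H3K9me3 reads of MEF deserts.

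The AY036118 bin between Esp23 and Pgk2 (chr17:39980001-39990000) had H3 of 2.66 and 3.41 RPKM for MEFs, 10.0 and 2.59 for pre-iPSCs and 4.68 and 2.56 for iPSCs. The high values were again those of pre-iPSC replicate 1 and iPSC replicate 1. Its H3K9me3 was 7.73, 5.90 and 5.53 RPKM. By mean level this bin ranked 2 of all desert bins in each of H3K4me3, H3K27me3 and H3K9me3, so it was raised for every antibody. Whether a cell has more copies of its sequence than the assembly was not examined, and its level is uncertain to that extent. The other leading H3K4me3 bins lay at annotated transcripts: Dleu2, a noncoding RNA host of microRNAs, in the Kcnrg/Dleu7 desert (1.46 and 1.01, 0.834 and 0.799, 1.19 and 1.00 RPKM), and Irx3 in the Fto/Irx5 desert of chromosome 8 (1.15 and 0.892, 0.939 and 0.676, 1.60 and 0.902 RPKM, of which 1.60 is iPSC replicate 1). A bin of the Ctbp2/4930404H21Rik desert had 1.29 and 1.12, 1.19 and 0.988, and 1.11 and 1.02 RPKM. This bin overlaps the protein-coding genes Fgfr2 and Ctbp2 of GENCODE. Of the 5 highest H3K27me3 bins, 3 lay close together in the Gm4791/Cadm1 desert in bins with no annotated gene. The highest of them had 1.11 and 0.641 RPKM for MEFs, 1.05 and 1.30 for pre-iPSCs and 0.991 and 1.06 for iPSCs. Its H3 was 0.868 and 0.454, 0.729 and 0.886, and 0.845 and 0.858 RPKM, and its H3K9me3 0.571, 1.20 and 1.03. All 4 antibodies were above their desert mean there in every library, so its high level was not particular to H3K27me3.

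Desert bins with annotated transcription starts had a higher mean H3K4me3 than those without. The 328 bins with a GENCODE protein-coding start had a mean of 0.357 and 0.343 RPKM for MEFs, 0.276 and 0.287 for pre-iPSCs and 0.286 and 0.288 for iPSCs. The 66956 bins with no start had 0.253 and 0.272, 0.236 and 0.236, and 0.234 and 0.225. The 283 bins with the start of a lincRNA or processed transcript were at 0.349 to 0.365 RPKM in the 6 libraries. The means of both kinds were above the bins with no start in 6 of 6 libraries, and so was their median GC content, 41.6% and 42.2% against 38.7%.

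The first comparison asked how H3 in deserts moved from MEFs to pre-iPSCs and on to iPSCs. No desert bin of 68869 tested was called in any of the 3 comparisons by edgeR at 5% FDR (0% of 250460 bins called genome-wide), and no desert of 659 (0% of 4410 regions, which are the deserts and 500-kb windows elsewhere). DESeq2 called none either. At an unadjusted p under 0.05 there were 522, 94 and 158 desert bins for pre-iPSCs against MEFs, iPSCs against pre-iPSCs and iPSCs against MEFs by edgeR, and 1, 0 and 2 deserts. These bins were 0.758%, 0.136% and 0.229% of the desert bins tested, against 3.75%, 0.190% and 0.810% of all bins. The deserts were 0.152%, 0% and 0.303% of those tested, against 0.862%, 0% and 0.113% of all regions. The replicates disagreed. Pre-iPSC replicate 1 was 1.5-fold lower than the MEF replicates in 80.2% and 79.3% of desert bins (48.3% and 47.1% of all bins), and pre-iPSC replicate 2 in 0.768% and 1.09% (0.581% and 0.752%). The iPSC replicates were lower than the MEF replicates in 52.5% and 48.9% of desert bins for replicate 1 (25.7% and 23.2% of all bins) and in 2.86% and 2.93% for replicate 2 (1.46% and 1.47%). Between the pre-iPSC replicates themselves, replicate 2 was 1.5-fold higher in 78.8% of desert bins, so the fall seen in replicate 1 was as large as the distance between replicates.

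The H3 outcome turned on these libraries. Without pre-iPSC replicate 2, edgeR called 46532 desert bins lower and 6405 higher in pre-iPSCs than in MEFs, 36526 higher and 4997 lower in iPSCs than in pre-iPSCs, and 492 deserts lower and 41 higher in pre-iPSCs than in MEFs. Over the whole genome that fit called 75.4% of bins (90603 higher and 98605 lower) and 81.5% of regions in pre-iPSCs against MEFs, near the 76.7% of desert bins and 80.9% of deserts, and 59.3% of bins in iPSCs against pre-iPSCs, near the 60.2% of desert bins. In that fit the lone pre-iPSC library is assumed to vary like the other groups. With GC correction the share of desert bins in which pre-iPSC replicate 1 was 1.5-fold lower than the MEF replicates went to 26.6% and 26.0% (13.8% and 13.2% of the other bins), and that of iPSC replicate 1 to 3.11% and 3.46% (1.24% and 1.39% of the other bins). Over the 659 deserts, the fitted log2 change from MEFs to pre-iPSCs had a median of -0.47 and ranked with GC content at a Spearman's rho of 0.881, which became -0.15 after GC correction.

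H3K4me3 was lower in most deserts that changed, and higher in the GC-rich ones. In pre-iPSCs against MEFs, 51 of 656 tested deserts rose and 230 fell (edgeR, 5% FDR; 40.9% of all regions tested were called, 19.2% higher and 21.6% lower). In iPSCs against MEFs, 56 rose and 305 fell (51.5% of all regions, 24.3% higher and 27.2% lower). Between iPSCs and pre-iPSCs edgeR called 0 deserts (0% of all regions), with 54 at an unadjusted p under 0.05 (8.23% of deserts and 12.4% of all regions). DESeq2 called 0 of the 273 deserts to which it gave an adjusted p, against 22 of 821 such regions (2.68%), all higher. The deserts that rose had a median GC content of 44.99% and a median length of 678 kb in pre-iPSCs, and those that fell 37.9% and 1170 kb. Those in neither group had 40.2%. Since the log2 change ranked with GC content at a rho of 0.774 and 0.813 over 656 deserts, the fit was repeated with a GC correction chosen after seeing the data. It called 19 deserts higher and 10 lower in pre-iPSCs, 17 and 10 of them shared with the uncorrected fit, and 3 higher and 6 lower in iPSCs, of which 2 and 6 were shared. These were 4.42% and 1.37% of the tested deserts, against 8.57% and 2.16% of all regions in the same fit, and the excess of falls turned in pre-iPSCs. Without pre-iPSC replicate 1 or 2, the 281 calls of pre-iPSCs against MEFs became 33 and 54. Those fits rest on a lone pre-iPSC library and have no share of all regions beside them. They describe how stable the calls were and not a trait of deserts. Without chromosome 8 the counts were 280 and 354.

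**Figure D4:**
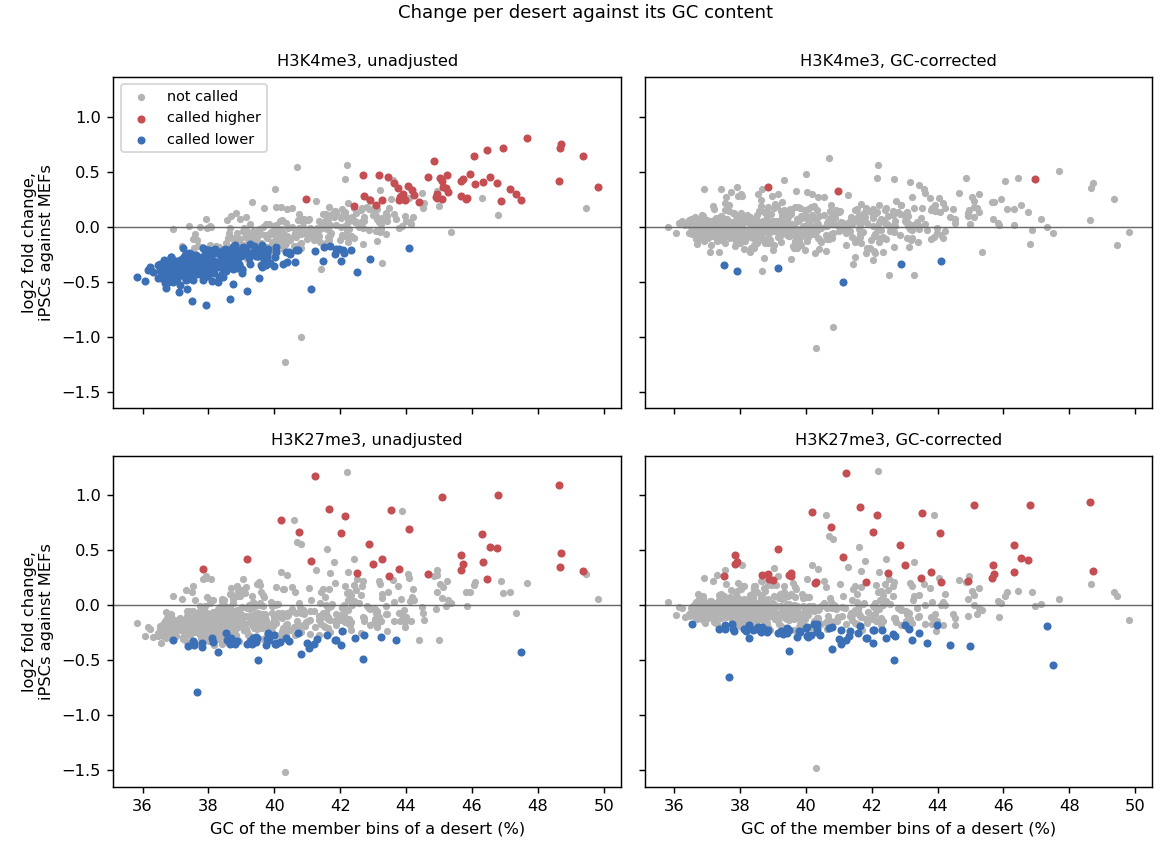
Log2 fold change of iPSCs against MEFs for each desert (y axis) against the GC content of its member bins (x axis, percent), for H3K4me3 above and H3K27me3 below, without GC correction on the left and with it on the right; red and blue points were called higher and lower by edgeR at 5% FDR and grey points were not called. Calls of H3K4me3 go from 56 higher and 305 lower to 3 and 6 with GC correction, and those of H3K27me3 from 32 and 55 to 42 and 74.

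The largest H3K4me3 rise in pre-iPSCs was between Rragc and Pou3f1, a POU-domain transcription factor of neural and epiblast cells. It was 0.329 and 0.340 RPKM for MEFs, 0.566 and 0.611 for pre-iPSCs and 0.513 and 0.563 for iPSCs. No MEF value reached those of the other cells, and the change was 0.82 on the log2 scale in pre-iPSCs (edgeR adjusted p = 0.0031) and 0.63 with GC correction (adjusted p = 0.016). Matn1/Ptpru (0.291 and 0.330, 0.549 and 0.515, 0.525 and 0.504 RPKM) and Gm628/Bai1 (0.307 and 0.349, 0.600 and 0.506, 0.521 and 0.484 RPKM) followed, at 0.79 and 0.76, and kept the call with GC correction at 0.55 and 0.51 in pre-iPSCs. In iPSCs the largest fitted rise over both replicates, 0.81, was in 1700018L24Rik/Sox1 on chromosome 8. It had 0.342 and 0.350 RPKM for MEFs, 0.536 and 0.553 for pre-iPSCs, and 0.698 and 0.488 in iPSC replicates 1 and 2. In iPSC replicate 2 Rragc/Pou3f1 was higher, at 0.563 RPKM, and its MEF values were lower, so this rank rests on replicate 1. With GC correction the rise of 1700018L24Rik/Sox1 was 0.50 and did not pass (edgeR adjusted p = 0.087). Of the 39 chromosome 8 deserts, 7 were among the 56 called higher in iPSCs and none with GC correction.

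Among the falls, Adam6a/Zfp386, the immunoglobulin heavy chain variable region, went from 0.182 and 0.201 RPKM of H3K4me3 in MEFs to 0.119 and 0.114 for pre-iPSCs and 0.124 and 0.127 for iPSCs. The change was -0.71 in pre-iPSCs (edgeR adjusted p = 0.0031) and -0.54 with GC correction (adjusted p = 0.016). In the same desert H3K27me3 went the other way, from 0.0969 and 0.103 RPKM to 0.124 and 0.124 and to 0.130 and 0.138, a rise of 0.33 in pre-iPSCs and 0.42 in iPSCs (adjusted p = 0.014 and 0.0068). Klra1/Klra2, between genes of natural killer cell receptors, had 0.110 and 0.128, 0.0779 and 0.0733, and 0.0825 and 0.0843 RPKM of H3K4me3, a fall of 0.64 in pre-iPSCs. Snrpn/Ndn, an imprinted region with 23 annotated miRNAs inside the gap, had 0.230 and 0.252, 0.159 and 0.160, and 0.144 and 0.152 RPKM. It fell by 0.68 in iPSCs and by 0.35 with GC correction (edgeR adjusted p = 0.039). Cst3/Cst10, between cystatin genes, had 0.259 and 0.284, 0.192 and 0.185, and 0.163 and 0.163 RPKM, and fell by 0.71 in iPSCs and by 0.40 with GC correction. Tnc/Pappa, beside the extracellular matrix gene tenascin C, had 0.349 and 0.300, 0.222 and 0.230, and 0.194 and 0.211 RPKM, and fell by 0.65 in iPSCs, but with GC correction (-0.41) it did not pass (edgeR adjusted p = 0.061).

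At 10 kb, H3K4me3 gave 631 desert bins higher and 1329 lower in pre-iPSCs than in MEFs, of 67640 tested (edgeR; 5.55% of all bins were called), or 490 and 1857 when scaled by uniquely mapped reads without TMM. In iPSCs against MEFs 1268 were higher and 4348 lower (13.2% of all bins), and in iPSCs against pre-iPSCs 13 and 1 (0.0309% of all bins, 0.0276% higher and 0.00325% lower). Genome-wide the directions were reversed, with 3.54% of bins higher and 2.01% lower for pre-iPSCs, and 7.97% and 5.26% for iPSCs. The higher desert bins had a median GC content of 45.8% and lay a median of 194 kb from a gene in pre-iPSCs, and the lower ones 37.3% and 483 kb. With GC correction the counts were 229 higher and 179 lower for pre-iPSCs and 437 and 211 for iPSCs, so the excess of lower bins over higher ones turned. These were 0.603% and 0.958% of desert bins against 2.12% and 2.999% of all bins, which in iPSCs turned the other way, to 3352 higher and 4030 lower. DESeq2 gave an adjusted p to 4145 and 6152 desert bins and also turned the excess, with 149 higher and 13 lower for pre-iPSCs and 224 and 23 for iPSCs. That is 3.91% and 4.01% of these bins, against 5.06% (2619 higher and 504 lower) and 10.6% (7034 and 1080) over the genome, where higher calls were also in excess. The counts that follow come from fits with a lone library in a group and have no share of all bins beside them. They describe how stable the calls were and not a trait of deserts. Without MEF replicate 1 or 2 or pre-iPSC replicate 1 or 2, the 1960 called bins of pre-iPSCs against MEFs became 595, 1136, 459 and 193, and without pre-iPSC replicate 1 more bins were higher (263) than lower (196). The 5616 of iPSCs against MEFs became 2568 and 2865 without MEF replicate 1 or 2 and 1358 and 3318 without iPSC replicate 1 or 2.

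H3K27me3 changed in both directions and held its calls better at equal GC content. In pre-iPSCs against MEFs, 49 of 657 tested deserts rose and 175 fell (31.7% of all regions tested were called, 15.6% higher and 16.1% lower), and in iPSCs against MEFs 32 rose and 55 fell (20.9%, with 10.3% higher and 10.6% lower). Between iPSCs and pre-iPSCs edgeR called 0 (0% of all regions), with 78 at an unadjusted p under 0.05 (11.9% of deserts and 12.4% of all regions), and DESeq2 called 7 (1.78% of the deserts with an adjusted p and 2.80% of such regions). With GC correction 49 rose and 60 fell in pre-iPSCs, 39 and 55 of them shared with the uncorrected fit, and 42 rose and 74 fell in iPSCs, of which 27 and 50 were shared. These were 16.6% and 17.7% of the tested deserts, against 27.3% and 29.4% of all regions in the same fit. Without chromosome 8 the uncorrected counts were 224 and 86. The counts that follow for fits without a library rest on a lone library in a group and have no share of all regions beside them. They describe how stable the calls were and not a trait of deserts. The 224 calls of pre-iPSCs became 126 and 387 without MEF replicate 1 or 2. Without pre-iPSC replicate 1 they became 20 rises and 4 falls, and without pre-iPSC replicate 2, 20 and 9, so the excess of falls turned. For iPSCs the excess of falls turned without MEF replicate 1 (36 rises and 21 falls), pre-iPSC replicate 1 (20 and 6), pre-iPSC replicate 2 (19 and 11), iPSC replicate 1 (21 and 3) and iPSC replicate 2 (35 and 24), and with the replicate number as a block (25 and 24). Without MEF replicate 2 it grew to 40 rises and 292 falls.

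The largest H3K27me3 rise in pre-iPSCs was between Ankrd26 and Dcp1b, an mRNA decapping factor, with 0.213 and 0.367 RPKM for MEFs, 0.611 and 0.649 for pre-iPSCs and 0.565 and 0.590 for iPSCs. The MEF replicates lay apart, yet both were below the other libraries, and the rise was 1.14 in pre-iPSCs (edgeR adjusted p = 0.0088) and 1.00 in iPSCs (adjusted p = 0.019), or 0.96 and 0.91 with GC correction. H3K9me3 there was 0.339, 0.481 and 0.551 RPKM, while H3K4me3 was 0.508 and 0.396, 0.494 and 0.474, and 0.499 and 0.454. Nphp4/Ajap1, between a ciliary gene and an adherens junction gene, rose by 0.99 in pre-iPSCs and 1.10 in iPSCs, from 0.244 and 0.296 RPKM to 0.520 and 0.538 and to 0.604 and 0.545. With GC correction its rises were 0.76 and 0.94. Gm4745/Obox2, between oocyte-type homeobox genes, rose by 0.86 in pre-iPSCs at a very low level, from 0.0109 and 0.0103 to 0.0181 and 0.0196 RPKM.

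The largest H3K27me3 fall was between Dcaf13 and Tm7sf4, the gap that holds Rims2. It was 0.359 and 0.321 RPKM for MEFs, 0.204 and 0.196 for pre-iPSCs and 0.189 and 0.202 for iPSCs, a change of -0.75 (edgeR adjusted p = 0.00098) and -0.79 (adjusted p = 0.0031), or -0.53 and -0.66 with GC correction. Its H3K4me3 was 0.240 and 0.259, 0.261 and 0.283, and 0.212 and 0.240 RPKM, with neither change called in the uncorrected fit. Tmem126b/Dlg2, beside a scaffold gene of the synapse, fell by 0.62 in pre-iPSCs, from 0.356 and 0.292 to 0.208 and 0.207 RPKM, and was at 0.257 and 0.264 in iPSCs. Olfr1505/Tle4, beside a corepressor gene, fell by 0.50 in iPSCs, from 0.471 and 0.414 to 0.297 and 0.326 RPKM. Exoc2/Foxq1, beside a forkhead factor, fell by 0.49, from 0.557 and 0.542 to 0.382 and 0.398 RPKM, and by the same 0.49 with GC correction. Prok2/Rybp, one of the 5 highest, fell in iPSCs by 0.42, from 0.733 and 0.785 to 0.521 and 0.610 RPKM (edgeR adjusted p = 0.016).

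At 10 kb, 1713 desert bins rose and 1760 fell in H3K27me3 of pre-iPSCs against MEFs, of 67520 tested (12.5% of all bins were called). Scaled by uniquely mapped reads without TMM, 1506 rose and 2738 fell, and DESeq2 called 486 higher and 26 lower (308 and 29 for iPSCs against MEFs). These were 1.09% and 0.643% of the desert bins with an adjusted p, against 3.84% (6405 higher and 667 lower) and 3.72% (6422 and 987) over the genome. In iPSCs against MEFs 1294 rose and 962 fell (11.6%, with 8.27% higher and 3.33% lower, or 1192 and 1385 desert bins without TMM and 500 and 515 in gaps of at least 1 Mb and bins at least 100 kb from a gene), while 2 rose and 6 fell in iPSCs against pre-iPSCs (0.0822%, with 0.0557% higher and 0.0264% lower, or 8 and 10 desert bins without TMM). The excess of falls in this last comparison turned with GC correction (19 rises and 16 falls) and without iPSC replicate 2 (12 and 3). The bins that rose in pre-iPSCs had a median GC content of 45.3% and lay in 248 deserts, and those that fell 37.3% in 405. Genome-wide the rises took 8.88% of bins and the falls 3.65%. With GC correction the desert counts were 1453 and 830 for pre-iPSCs and 1520 and 1069 for iPSCs, which is 3.38% and 3.83% of desert bins against 12.2% and 13.7% of all bins. The next counts are of fits with a lone library in a group, without the share of all bins. They describe how stable the calls were and not a trait of deserts. The 3473 called bins of pre-iPSCs became 1001 without MEF replicate 1, 719 without pre-iPSC replicate 1 and 910 without pre-iPSC replicate 2, with 757, 602 and 720 of them higher, and the 2256 of iPSCs became 860 without MEF replicate 1 and 552 without iPSC replicate 1.

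H3K9me3 had 1 library per cell type, so there is no replicate check and no test. In pre-iPSCs 13.8% of desert bins were 1.5-fold lower than in MEFs and 2.31% higher (7.88% and 9.44% of all bins). In iPSCs 15.7% were lower and 5.60% higher than in MEFs (9.96% and 11.0% of all bins). Against pre-iPSCs, 8.66% were higher and 4.82% lower in iPSCs (6.69% and 5.27% of all bins). Chromosome 8 stood apart in the iPSC library. For iPSCs against MEFs, 26.1% of its desert bins were higher and 0.746% lower, against 4.31% and 16.6% elsewhere. For iPSCs against pre-iPSCs, 39.3% were higher and 0.0994% lower, against 6.74% and 5.12% elsewhere. With GC correction the shares lower and higher were 7.18% and 4.24% for pre-iPSCs and 7.35% and 8.54% for iPSCs against MEFs, against 5.10% and 11.2% and 7.08% and 11.5% in the other bins. The small excess of higher bins in iPSC deserts rested on chromosome 8: without it, 7.80% of desert bins were lower and 6.77% higher after the correction, and 7.43% and 9.70% of the other bins. Among whole deserts Lrrc4c/B230118H07Rik, which holds the satellite bin, had 0.425, 0.244 and 0.245 RPKM in MEFs, pre-iPSCs and iPSCs, and Ankrd26/Dcp1b 0.339, 0.481 and 0.551. The satellite bin was at 51.7, 10.3 and 11.8 RPKM, and its part in the mean of its desert was not taken out.

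The genes that bound the deserts were compared in RNA. There were 1171 of them in the expression tables, of which 699 passed the filter on low values. In bulk samples, fewer cells of a type and less RNA per cell cannot be told apart. Their median level was 1.35 and 1.18 FPKM for MEFs, 0.971 and 0.626 for pre-iPSCs and 0.475 and 0.729 for iPSCs, against 1.22 to 1.73 for all genes. Flanking genes fell more than they rose: 51 rose and 131 fell in pre-iPSCs against MEFs (limma, 5% FDR and 2-fold; 16.4% of all 12401 genes tested were called, 7.39% higher and the rest lower), and 48 rose and 225 fell in iPSCs against MEFs (25.9%, with 10.3% higher and 15.5% lower). For iPSCs against pre-iPSCs there were 25 rises and 42 falls (8.62%, with 3.91% higher and 4.71% lower). Their median log2 changes were -0.34, -0.63 and -0.23, against -0.04, -0.14 and -0.09 for all genes. The counts of fits without a library, given next and at the end of this paragraph, rest on a lone library in a group. In each such fit the share of all genes called fell or rose with the count. These counts therefore describe how stable the calls were and not a trait of flanking genes. Without pre-iPSC replicate 2 the 182 calls of pre-iPSCs became 117, and without iPSC replicate 1 or 2 the 273 of iPSCs became 40 and 112. Without chromosome 8 the counts were 48 and 125 for pre-iPSCs and 44 and 212 for iPSCs against MEFs, and 22 and 41 between the reprogrammed cells. The 67 calls between iPSCs and pre-iPSCs became 6 (4 rises) and 3 (all rises) without iPSC replicate 1 or 2, 41 and 42 without pre-iPSC replicate 1 or 2, and 144 and 140 without MEF replicate 1 or 2.

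**Figure D5:**
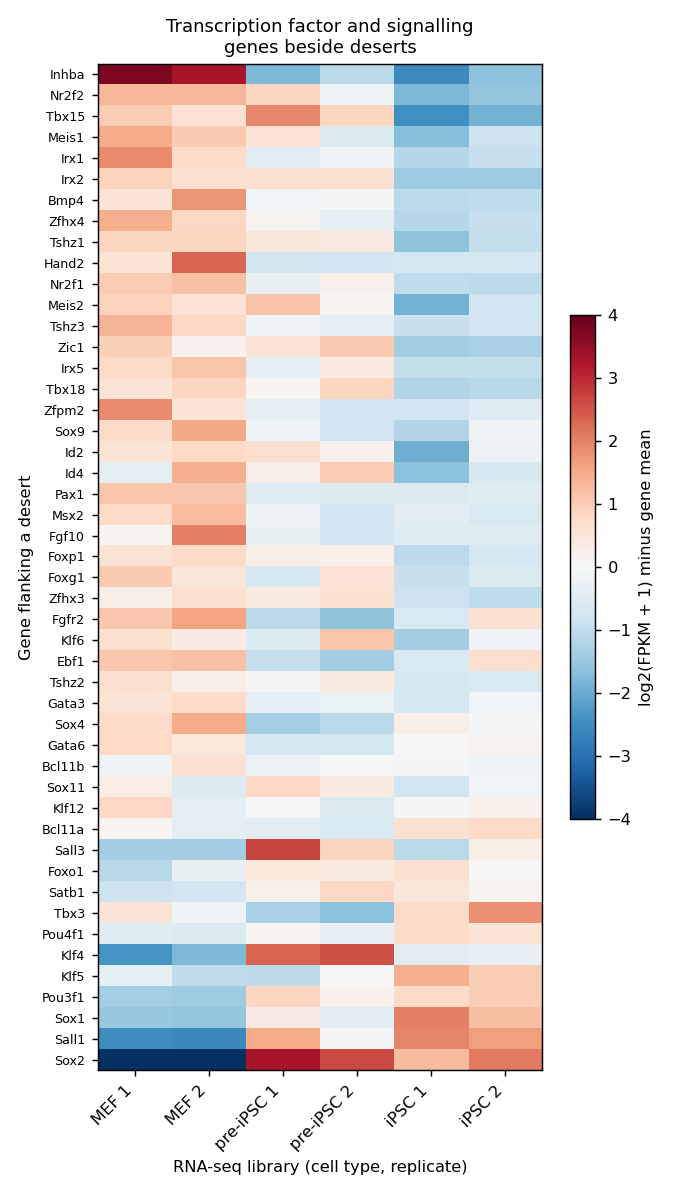
Heat map of the 48 tested developmental genes beside deserts (rows) in the 6 RNA libraries (columns), coloured by log2(FPKM + 1) minus the mean of the gene over the libraries, with colours ending at 4 and -4. Genes in the upper rows, such as Inhba, Nr2f2 and Tbx15, are above their mean in both MEF libraries and below it in both iPSC libraries, and Sox2 in the last row is the reverse.

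Developmental transcription factors and signals made up 68 flanking genes, of which 48 were tested. In iPSCs against MEFs 7 rose and 27 fell, with a median log2 change of -1.51 (25.9% of all genes tested were called), in pre-iPSCs against MEFs 6 rose and 10 fell (-0.45, 16.4% of all genes), and in iPSCs against pre-iPSCs 2 rose and 8 fell (-0.68, 8.62% of all genes). Tbx15, a T-box factor of skeletal development, was at 23.5 and 17.1 FPKM for MEFs, 44.7 and 21.1 for pre-iPSCs and 1.22 and 2.27 for iPSCs. From pre-iPSCs to iPSCs it fell by 3.56 ± 0.45 (SE) on the log2(FPKM + 1) scale (limma adjusted p = 0.0048). Nr2f2, a nuclear receptor of mesenchyme and veins, was at 14.5 and 14.3, 10.1 and 4.42, and 0.742 and 1.11 FPKM, and Irx2 at 14.2 and 11.7, 11.8 and 11.8, and 1.95 and 1.95. Both were called lower in iPSCs than in either other cell type. Inhba, the activin beta A subunit, was at 179 and 131 FPKM for MEFs, 2.83 and 5.39 for pre-iPSCs and 1.30 and 3.31 for iPSCs, and so fell already in pre-iPSCs (-4.96 ± 0.43, limma adjusted p = 0.0011).

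Of the genes that rose, Sox2, one of the delivered factors, was at 0.124 and 0.128 FPKM for MEFs, 272 and 171 for pre-iPSCs and 65.7 and 116 for iPSCs. Klf4 was at 25.1 and 37.6, 674 and 782, and 99.6 and 105 FPKM, and Myc at 57.8 and 36.3, 337 and 816, and 9.85 and 7.34. For all of these delivered factors, transgene and endogenous transcripts cannot be told apart, and all were highest in pre-iPSCs. Pou3f1 beside the Rragc/Pou3f1 desert was at 0.0664 and 0.0257, 3.99 and 2.07, and 3.63 and 4.37 FPKM. It rose by 1.91 ± 0.37 in pre-iPSCs and 2.25 ± 0.37 in iPSCs (limma adjusted p = 0.014 and 0.0057). Sox1, beside the chromosome 8 desert of high H3K4me3, was at 0.0243 FPKM and listed at 0 in MEFs, at 2.69 and 1.15 in pre-iPSCs and at 11.0 and 5.84 in iPSCs. Sall1, a zinc finger factor on chromosome 8, was at 0.111 and 0.0429, 16.3 and 4.99, and 23.4 and 19.01 FPKM. Dppa4, a gene of pluripotent cells, was listed at 0 in both MEF libraries, at 0 and 0.0568 FPKM in pre-iPSCs and at 71.3 and 59.1 in iPSCs, and Fbxo15, a target of Oct4 and Sox2, was listed at 0 and 0.104 in MEFs, and at 54.7 and 70.3 for pre-iPSCs and 72.5 and 82.1 for iPSCs.

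By the start of their symbols, 103 flanking genes fell in families of neuronal adhesion, guidance, synapse and potassium channel genes. Not every member of these families is neuronal. Of the 103, 32 were tested, since most were near 0. In pre-iPSCs against MEFs 2 rose and 11 fell (16.4% of all genes tested were called), and in iPSCs against MEFs 2 rose and 12 fell (25.9% of all genes). In iPSCs against pre-iPSCs 3 rose and 2 fell (8.62% of all genes). The falls were led by genes that fibroblasts also express: Cdh11, a mesenchymal cadherin, was at 172 and 113 FPKM for MEFs, 14.6 and 3.14 for pre-iPSCs and 3.62 and 7.85 for iPSCs. Slit2, a guidance ligand, was at 21.3 and 13.3, 1.51 and 0.362, and 0.391 and 0.833 FPKM. Lrrc4c beside the satellite-bearing desert, which is not on this list, was at 6.07 and 3.02, 0.207 and 0.0819, and 0.0442 and 0.0250 FPKM, and was called lower in pre-iPSCs by 2.22 ± 0.33 and in iPSCs by 2.37 ± 0.33. The gene on the other side, B230118H07Rik, at 2.93 and 8.39, 5.56 and 5.34, and 3.73 and 3.96 FPKM, was not called in any comparison.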

How the data were processed

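Mononucleosomes of mouse MEFs, pre-iPSCs and iPSCs were immunoprecipitated for H3, H3K4me3, H3K27me3 or H3K9me3 and sequenced, and RNA was sequenced from the same cell types. The authors aligned ChIP reads uniquely to mm9 with Bowtie, called nucleosomes with GeneTrack and deposited, for each called nucleosome, its read count and its fuzziness, the spread in bp of its reads. The authors deposited expression as FPKM in 2 separately made tables, from TopHat2 2.0.4 and Cufflinks 2.0.2.

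Read counts of calls were assigned by nucleosome centre to 10-kb bins. RPKM used the uniquely mapped reads that the study gives per library. Reads outside called nucleosomes are not in the counts, which can lower the level of sparsely covered bins. Counts were tested with edgeR 4.0.16 (quasi-likelihood, TMM, filterByExpr) on all bins, and on deserts beside 500-kb windows elsewhere, at 5% FDR. DESeq2 1.42.0 was an alternative. Expression was tested with limma 3.58.1 on log2(FPKM + 1) with the table as a term, for genes averaging 0.5 FPKM or more, at 5% FDR and a 2-fold change. Ratios of desert to other bins used exact sign-flip and permutation tests over libraries (scipy 1.17.1). GC correction used classes of 1 percentage point. The alternatives were other scalings, filters, rules and tools, a replicate block and leaving out 1 library at a time. The fits were tested on simulated data.

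Named deserts were the 10 longest gaps, the 5 deserts and bins of highest mean level per mark, and the 3 largest rises and falls among deserts called per mark and comparison. Named genes were those flanking the longest gaps, 2 lists of flanking genes by symbol, and the 5 largest called changes in each direction that went the same way in both tables. Members and lists were chosen with earlier results of these data known. Sequences were read from the NCBIM37 genome and genes inside gaps from GENCODE.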

Additional observations from a re-analysis of the deposited data

Results flagged for a closer look

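At equal GC content, the H3K27me3 level of deserts relative to the other bins was above 1 in both MEF libraries (1.03 and 1.02) and below 1 in both pre-iPSC libraries (0.953 and 0.977) and both iPSC libraries (0.970 and 0.981). The log2 ratio of pre-iPSCs minus that of MEFs was -0.0911, and that of iPSCs minus that of MEFs was -0.0756. They stand here because all libraries of one cell type lay on the opposite side of 1 from all libraries of the other. On the ratio without log2, the mean of the 2 replicates was 1.03 for MEFs (SD 0.00877), 0.965 for pre-iPSCs (SD 0.0169) and 0.976 for iPSCs (SD 0.00779). An SD of 2 libraries is itself a rough value. At equal GC content the H3 log2 ratio moved the same way and by more, by -0.164 from MEFs to pre-iPSCs and -0.104 from MEFs to iPSCs, without overlap of the libraries but with all of them below 1, and the single H3K9me3 library was highest in MEFs (1.03, 0.940 and 1.00 in MEFs, pre-iPSCs and iPSCs). The exact permutation test of H3K27me3 gave p = 0.33 for each, the smallest that 2 libraries against 2 allow, so its outcome was fixed by the design and says nothing on the difference.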

How the results depend on the processing

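In all, 366 alternative values were computed. Of these, 231 stayed the same, 113 moved, 19 lost the threshold and 3 changed sign. A value stayed the same within 1.5 times the count reported, at its rank or on its side of the threshold. For H3 shares the margin was the SD over pairs of libraries of 2 cell types. These pairs share libraries and lay far apart. For pre-iPSCs against MEFs their percentages lower minus higher were 76.5, 75.4, 0.475 and -0.0419. The margin is so wide that a difference that all but vanished still counted as the same, so this label does not show that H3 shares were stable. For H3K9me3 shares it was a 95% margin that takes bins as independent, or a fixed margin without chromosome 8. Ratio tests that left out 1 of 6 libraries lost the threshold by design, since 5 libraries cannot pass it. That tally takes counts by their total only: of 167 alternative counts set against a reported excess of higher or of lower calls, 35 turned it. The values without chromosome 8, the ranks of deserts without iPSC replicate 1 and the GC corrections per desert and of H3K9me3, with and without chromosome 8, were chosen after seeing the data. The cause of these changes was not tested, except that leaving out a library or restricting the rule leaves less data.

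Counts of desert bins are given for pre-iPSCs against MEFs, iPSCs against pre-iPSCs and iPSCs against MEFs in that order. For H3K4me3 (1960, 14 and 5616), the rule of 1 Mb and 100 kb gave 1170 and 7 in the first 2, calls of at least 2 reads 1186, 0 and 3073, GC correction 408, 5 and 648, and DESeq2 162 (149 higher), 0 and 247 (224 higher), among the 4145, 69280 and 6152 bins with an adjusted p. For H3K27me3 (3473, 8 and 2256), the rule of 1 Mb gave 1747, 1 and 1015, GC correction 2283 and 35 (19 higher) in the first 2, DESeq2 512 (486 higher), 2 and 337 (308 higher), and scaling by unique reads without TMM 18 for the second. Per desert, GC correction gave 29 and 9 for H3K4me3 (281 and 361 against MEFs) and 109 for H3K27me3 of pre-iPSCs (224), and DESeq2 called 7 for H3K27me3 between iPSCs and pre-iPSCs (0).

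The labels number replicates 1 and 2, but same-numbered libraries did not always deviate together: correlations of the replicate differences in desert bins ran from -0.07 to 0.64 for H3, -0.04 to 0.09 for H3K4me3 and -0.03 to 0.04 for H3K27me3. With the number as a replicate block, H3K4me3 gave 27 bins between iPSCs and pre-iPSCs, H3K27me3 gave 4 bins there and 147 and 49 (25 higher and 24 lower) deserts against MEFs, and the block with GC correction gave 414 and 612 bins for H3K4me3 against MEFs and 45 (26 higher) for H3K27me3 between iPSCs and pre-iPSCs. For expression, whose 2 tables made the block part of the reported fit, 188, 65 and 268 flanking genes were called without it. That is 26.9%, 9.30% and 38.3% of those tested, against 16.1%, 9.06% and 24.2% of all genes. The block moved no other count at 5% FDR by over 1.5 times. H3 had 0 calls with and without it, but its desert bins at an unadjusted p under 0.05 went from 522, 94 and 158 to 10198, 527 and 684 (14.8%, 0.765% and 0.993%, against 13.3%, 0.787% and 2.38% of all bins). Its deserts against MEFs at that p went from 1 and 2 to 88 and 9 (13.4% and 1.37%, against 10.8% and 3.63% of all regions).

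The H3K27me3 ratio of deserts lost its p at equal GC content (0.989). For H3K9me3, the percentage of desert bins 1.5-fold lower minus the percentage higher (11.5, -3.84 and 10.1 in the order above) became 1.67, -1.56 and 1.14 at 2-fold, 14.4, -5.46 and 11.3 with scaling to the median bin, 10.8 and -3.23 in the first 2 with at least 40 reads, 20.0, 1.21 (reversed) and 20.6 with calls of at least 2 reads, 2.94, -4.99 and -1.18 (reversed) with GC correction, -1.62 and 12.3 in the last 2 without chromosome 8, and 3.01, -2.71 and 1.03 with GC correction and without chromosome 8. With no filter on low values, 118 and 33 flanking genes were called in the first 2 comparisons (11.2% and 3.14% of those tested, against 7.33% and 4.65% of all genes).

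Leaving out 1 library at a time gave these ranges. The counts come from fits with a lone library in a group and stand without the share over all bins, regions or genes. As such they describe the stability of the calls and not a trait of deserts or of their flanking genes. H3 bins were 0 to 52937, 0 to 41523 and 0 to 5098, and H3 deserts 0 to 533 and 0 to 436. H3K4me3 bins were 193 to 2441, 0 to 355 and 1358 to 5129, and deserts 33 to 325, 0 to 39 and 252 to 372. H3K27me3 bins were 719 to 3864, 0 to 15 and 552 to 2249, and deserts 24 to 387, 0 to 22 and 24 to 332. The ratio to other bins was 0.650 to 0.785 for H3, 0.635 to 0.669 for H3K4me3, 0.746 to 0.783 for H3K27me3 and 0.790 to 0.858 for H3K9me3; with 5 libraries the exact p cannot pass, at 0.0625. The H3 percentage lower minus higher at 1.5-fold (38.1, -22.2 and 25.7) was 0.216 to 76.0, -65.2 to 20.8 and 2.27 to 49.1, and the second reversed without pre-iPSC replicate 1. It was 32.4, -21.4 and 6.21 at 2-fold, 23.9, -10.5 and 16.0 with scaling to the median bin, and 9.23, -6.78 and 0.834 with GC correction. Flanking genes called were 117 to 233, 3 to 144 and 40 to 296. The excess of falls of H3K27me3 deserts against MEFs turned without pre-iPSC replicate 1 or 2, and for iPSCs also without MEF replicate 1 or either iPSC replicate and under the replicate block.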
